A study of Mus musculus with 15 samples.

Results

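Epithelial-mesenchymal transition is driven by a small set of transcription factors. Twist1 and Twist2 (helix-loop-helix proteins), Snai1 and Snai2, Zeb1 and Zeb2 (zinc-finger repressors) and Prrx1 (a homeobox protein) favour the mesenchymal state. Elf3, an ETS factor restricted to epithelia, and Grhl2, a grainyhead factor that keeps junction genes active, favour the epithelial state. Vimentin (Vim), the intermediate filament protein of mesenchymal cells, is the usual readout. These 10 genes were chosen by symbol, with earlier results of these data known. All 10 were found among the 55341 genes of the count table. The SNAI and ZEB proteins are known to bind the E-box, written CANNTG and most often CAGGTG or its complement CACCTG, and so to silence genes such as the E-cadherin gene Cdh1. In mammary carcinoma cells these factors can act in mixtures, so that cells hold epithelial and mesenchymal products together.

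The genes were read in 6DT1, a cancer line from the mouse mammary gland with FVB/N1 as strain background, with polyadenylated RNA sequenced from 15 libraries. Clic4-knockout cells given 1 µM hydrogen peroxide (H2O2) for 24 h gave 3 libraries, and untreated knockout cells gave 4. Wild-type cells given the same peroxide treatment gave 4 libraries, and untreated wild-type cells gave 4. All groups share the line and background, and no other allele or agent is named. The labels do not say how many knockout clones were used, so the effect of the Clic4 deletion and of a clone's own history cannot be told apart, and they do not say that replicates came from separate cultures, so p-values measure the spread between these libraries, which may be technical. Untreated wild-type replicate 9 is wild type by title, description and source, while its genotype field says knockout. It was kept as wild type, and its Clic4 level was that of the other wild-type libraries. This library stood apart in leukocyte genes and in some fibroblast and endothelial genes. The fibroblast genes Pdgfrb and Fap and the endothelial gene Pecam1 peaked there, at 2.90, 0.675 and 2.36 CPM. They summed to 44, 11 and 39 counts in untreated wild-type cells, against 0, 0 and 3 in treated wild-type cells. Replicate 9 held 67 counts of Ptprc (CD45) and 13 of Cd3e, against 0 in the other 3 untreated wild-type libraries. It held 288 counts of Lyz2, against 0 to 2. Untreated genotype results are therefore also given without it. No batch is named.

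Libraries held 12.31 to 14.71 M counts in treated knockout cells and 13.27 to 16.03 M in untreated knockout cells, against 13.38 to 15.84 M in treated and 13.95 to 15.62 M in untreated wild-type cells. Clic4 itself, in normalised counts per M (CPM), was 68.39 to 75.91 in treated and 64.16 to 75.05 in untreated knockout cells, against 313 to 316.8 in treated and 315.9 to 326.7 in untreated wild-type cells. The mammary epithelial keratins Krt8, Krt18 and Krt19 were present in every group, and the other 4 of 7 luminal markers stayed under 1 CPM. Cdh1 summed to 3 and 1 counts in treated and untreated knockout cells, against 2 and 5 counts in treated and untreated wild-type cells. The epithelial adhesion gene Epcam summed to 1 and 2 counts in treated and untreated knockout cells, against 0 and 1 in treated and untreated wild-type cells, and the epithelial splicing factor Esrp1 had 0 counts in all 15 libraries. The mammary label thus had keratins behind it, while Cdh1, Epcam and Esrp1 were at or near 0 in both genotypes.

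Promoter windows were taken from RefSeq (GRCm38.p6) for 7 of the 10 genes, with 10 start sites between them. No window is reported here for Zeb1, Snai2 and Grhl2. RefSeq starts can differ from the GENCODE gene positions given below. The Vim window lies inside that gene's GENCODE span, and the Elf3 window lies partly inside its span. The 250 bases before the start are shown for the 3 genes whose RNA rose in knockout cells and whose window held a searched motif, and for Snai1, whose RNA passed no test. Both strands were searched, and capitals mark E-boxes (CANNTG, which includes CAGGTG and CACCTG) and the TATA letters TATAAA. All 4 are printed 5′ to 3′ on the strand of the gene: Elf3 at chr1:135258473-135258722 (minus), Twist1 at chr12:33957421-33957670 (plus), Vim at chr2:13574061-13574310 (plus) and Snai1 at chr2:167537945-167538194 (plus).
Elf3: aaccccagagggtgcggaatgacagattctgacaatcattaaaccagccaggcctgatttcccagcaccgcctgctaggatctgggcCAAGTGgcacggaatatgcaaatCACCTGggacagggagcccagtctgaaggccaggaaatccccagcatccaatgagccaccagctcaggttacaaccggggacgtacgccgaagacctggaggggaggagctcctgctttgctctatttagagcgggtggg
Twist1: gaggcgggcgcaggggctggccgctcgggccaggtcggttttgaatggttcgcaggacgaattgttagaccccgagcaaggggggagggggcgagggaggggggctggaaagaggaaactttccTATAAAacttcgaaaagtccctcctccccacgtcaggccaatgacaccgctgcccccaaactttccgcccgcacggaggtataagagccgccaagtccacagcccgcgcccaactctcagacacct
Vim: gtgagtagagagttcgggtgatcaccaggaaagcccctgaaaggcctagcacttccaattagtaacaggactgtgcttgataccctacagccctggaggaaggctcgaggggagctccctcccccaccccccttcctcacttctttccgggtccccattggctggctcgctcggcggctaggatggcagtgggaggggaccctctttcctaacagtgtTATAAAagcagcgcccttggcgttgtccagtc
Snai1: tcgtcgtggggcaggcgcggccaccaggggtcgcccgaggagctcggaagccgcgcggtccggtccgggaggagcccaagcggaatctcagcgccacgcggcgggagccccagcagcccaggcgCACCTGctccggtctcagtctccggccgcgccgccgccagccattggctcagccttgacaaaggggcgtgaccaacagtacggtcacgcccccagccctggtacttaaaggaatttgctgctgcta
Counting to the first letter of the motif, the Elf3 window held 2 E-boxes, CAAGTG at 163 and CACCTG at 140 bases before the start. The Snai1 window held CACCTG at 126 bases before the start. The Twist1 and Vim windows held no E-box but each held TATAAA, at 126 and 32 bases before the start. Among 32851 mouse promoter windows of the same length, 66.2% held an E-box, 17.2% held CAGGTG or CACCTG and 12.4% held TATAAA. Of the 10 member start sites, 2 held an E-box, and both held the CACCTG form. The windows of Zeb2, Twist2 and Prrx1 held none of these motifs. These matches describe letters in a window and say nothing of binding in these cells.

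Vim, Twist1, Zeb2 and Elf3 RNA was higher in knockout than in wild-type cells, with and without peroxide, while Zeb1 and Snai1 did not pass the test. Twist1 was 3.78-fold higher, Vim 1.54-fold and Zeb2 1.54-fold in untreated cells, and Elf3 was counted in every knockout library and in no wild-type library. Of the 10 genes, 6 had enough counts to be tested and 4 (Twist2, Snai2, Prrx1 and Grhl2) did not. Among the 6 tested genes, 4 were called higher and 0 lower in each genotype comparison. Over all 13085 genes tested, 66.8% were called in untreated cells (33.9% higher and 32.9% lower). With peroxide 65.4% were called (33% higher and 32.4% lower). The share of members called was close to the background. Their median log2 fold change was 0.62 untreated and 0.69 with peroxide, against medians over all genes of 0.0028 and 0. Elf3 passed the count filter through the knockout libraries only, so its place among the called genes and in these medians follows from its level there. RNA was measured in bulk, so fewer cells with a transcript and less RNA per cell cannot be told apart.

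**Figure D1:**
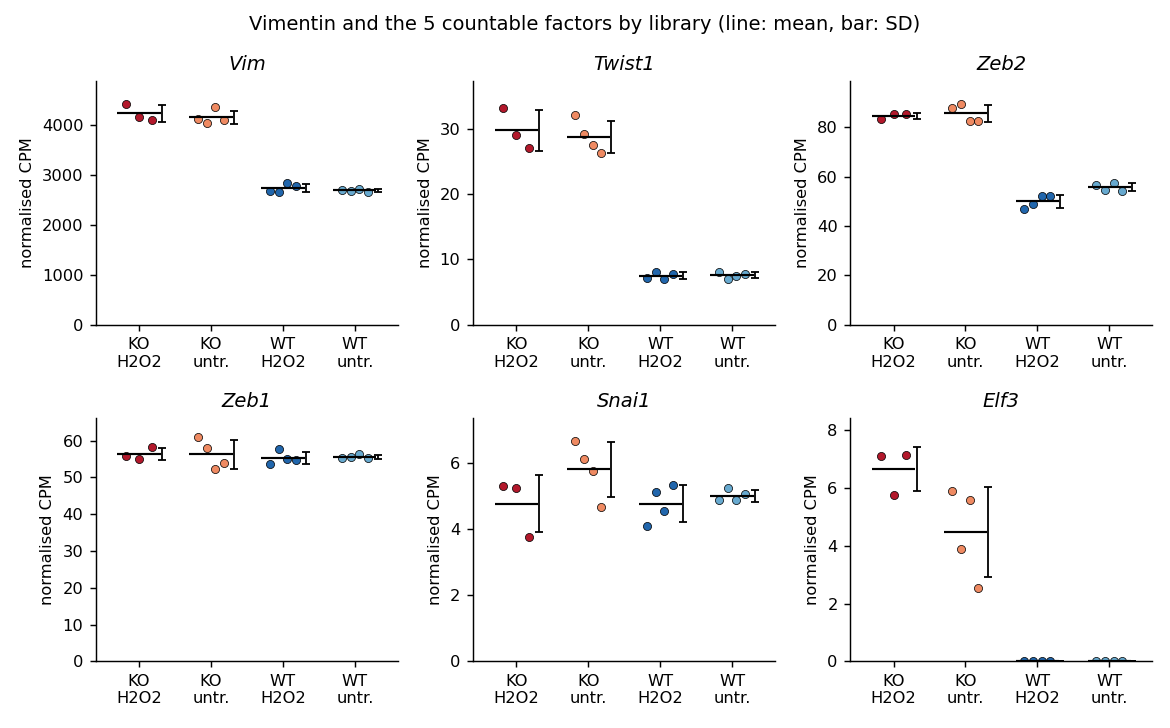
Normalised counts per M of the 6 tested members in each of the 15 libraries, by group (KO, knockout; WT, wild type; untr., untreated); lines are means and bars SD (n = 3 for treated knockout cells, 4 otherwise). Knockout points lie above all wild-type points for Vim, Twist1, Zeb2 and Elf3, and overlap them for Zeb1 and Snai1. The wild-type libraries of Elf3 all sit at 0. How many of all tested genes separate in this way was not counted.

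Vim lies on chromosome 2 (mm10 chr2:13573927-13582826, plus strand). In untreated cells its CPM was 4112, 4035, 4341 and 4091 in the knockout libraries, against 2691, 2679, 2714 and 2650 in the wild-type libraries. With peroxide it was 4420, 4160 and 4085 CPM in knockout cells, against 2667, 2659, 2839 and 2773 CPM in wild-type cells. The lowest knockout library was well above the highest wild-type library in both conditions. The log2 fold change was 0.63 ± 0.03 (SE, 95% interval 0.56 to 0.70, adjusted p = 3.104e-15) untreated and 0.63 ± 0.04 (adjusted p = 1.69e-14) with peroxide. Vim was among the most abundant transcripts in both genotypes, taking 0.409% of counts in untreated knockout cells and 0.271% in untreated wild-type cells. By RPKM (reads per kilobase per M, a level per gene length) it ranked 31 of 12921 tested genes in untreated knockout cells and 60 in untreated wild-type cells.

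Twist1, the helix-loop-helix factor that drives mesenchymal and invasive programmes in mammary tumour cells, lies at mm10 chr12:33957671-33959829 on the plus strand. Untreated knockout libraries held 32.1, 29.2, 27.5 and 26.3 CPM, against 8.03, 7.01, 7.51 and 7.78 CPM in wild-type libraries. With peroxide the knockout libraries held 33.3, 29.1 and 27.1 CPM, against 7.18, 8.16, 6.98 and 7.76 CPM in the wild-type libraries. Every knockout library lay above every wild-type library. The log2 fold change was 1.92 ± 0.08 (95% interval 1.74 to 2.09, adjusted p = 1.898e-17) untreated and 1.99 ± 0.09 (adjusted p = 3.74e-17) with peroxide. By RPKM Twist1 stood at the 67.2 percentile of tested genes in untreated knockout cells and at the 35.0 percentile in untreated wild-type cells, percentiles counted from the lowest gene.

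Zeb2, a zinc-finger repressor of epithelial genes, lies at mm10 chr2:44983632-45117395 on the minus strand. Untreated knockout libraries held 87.9, 89.3, 82.5 and 82.7 CPM, against 56.6, 54.6, 57.5 and 54.1 CPM in wild-type libraries. With peroxide they held 83.3, 85.3 and 85.5 CPM in knockout cells, against 47.0, 49.0, 52.0 and 52.3 CPM in wild-type cells. The groups did not overlap. The log2 fold change was 0.62 ± 0.04 (95% interval 0.53 to 0.71, adjusted p = 6.761e-13) untreated and 0.76 ± 0.05 (95% interval 0.66 to 0.86, adjusted p = 5.956e-14) with peroxide. The antisense gene Zeb2os shares 653 exon bases with Zeb2 and summed to 32 counts in untreated knockout cells and 37 in untreated wild-type cells, with a log2 fold change of -0.19 (adjusted p = 0.675). The strand setting of the counting is not given in the sources used here.

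Zeb1, the paralog of Zeb2 with the same kind of zinc fingers, stood between 52.3 and 60.9 CPM in all 15 libraries. Untreated knockout libraries held 60.9, 58.0, 52.3 and 53.8 CPM, against 55.2, 55.5, 56.4 and 55.3 CPM in wild-type libraries. With peroxide the knockout libraries held 55.8, 55.1 and 58.3 CPM, against 53.8, 57.6, 55.1 and 54.7 CPM in the wild-type libraries. The groups overlapped, and the 95% interval of the log2 fold change was -0.08 to 0.11 untreated and -0.08 to 0.13 with peroxide (adjusted p = 0.793 and 0.657). Snai1, the repressor that starts many transitions, held 6.66, 6.09, 5.76 and 4.67 CPM in untreated knockout libraries, against 4.86, 5.24, 4.87 and 5.04 CPM in wild-type libraries. With peroxide it held 5.28, 5.22 and 3.76 CPM in knockout cells, against 4.09, 5.11, 4.53 and 5.32 CPM in wild-type cells. Its log2 fold change was 0.21 (95% interval -0.06 to 0.48, adjusted p = 0.167) untreated and 0.01 (95% interval -0.30 to 0.32, adjusted p = 0.959) with peroxide. Without untreated knockout replicate 4, the lowest of its group, the untreated value was 0.30 with adjusted p = 0.0498.

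Of the epithelial members Elf3 and Grhl2, only Elf3 (mm10 chr1:135253575-135258568, minus strand) had enough counts for the test. Elf3 was counted in knockout cells only. Untreated knockout libraries held 77, 57, 88 and 38 counts, against 0 counts in each of the 4 untreated wild-type libraries. With peroxide they held 102, 84 and 87 counts in knockout cells, against 0 in each of the 4 wild-type libraries. With the wild-type group set at 3 counts over the group, the most that a sum of 0 allows, Elf3 was at least 87.5-fold higher untreated. With peroxide it was at least 131.1-fold higher. The test on the fitted group means, which does not use this bound, gave adjusted p = 1.606e-08 untreated and 4.852e-09 with peroxide. Elf3 passed the count filter through the knockout libraries only, so these p-values add no support beyond the counts. Elf3 shares 162 exon bases with the antisense gene Gm26642, which summed to 23 counts in untreated knockout cells and 39 in untreated wild-type cells. That antisense gene's log2 fold change was -0.73 (adjusted p = 0.13). The wild-type libraries held antisense counts while Elf3 stood at 0. How reads in the shared bases were assigned cannot be told, because the strand setting is not given.

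Without untreated wild-type replicate 9, the untreated log2 fold changes were 1.95 for Twist1, 0.63 for Zeb2, 0.63 for Vim, 0.19 for Snai1 and 0.01 for Zeb1, and the 4 calls held. The peroxide response of Zeb2 in wild-type cells was then -0.15. Elf3 was then at least 65.5-fold higher in untreated knockout cells. The untreated ratio of knockout to wild type was 0.0889 for Twist2 (95% interval 0.00996 to 0.375) and 0.567 for Grhl2 (0.0830 to 3.35). The RPKM ratio in untreated wild-type cells was 0.762 ± 0.0469 for Twist1 to Zeb2 and 4.65 ± 0.102 for Zeb1 to Zeb2 (SD, n = 3).

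**Figure D2:**
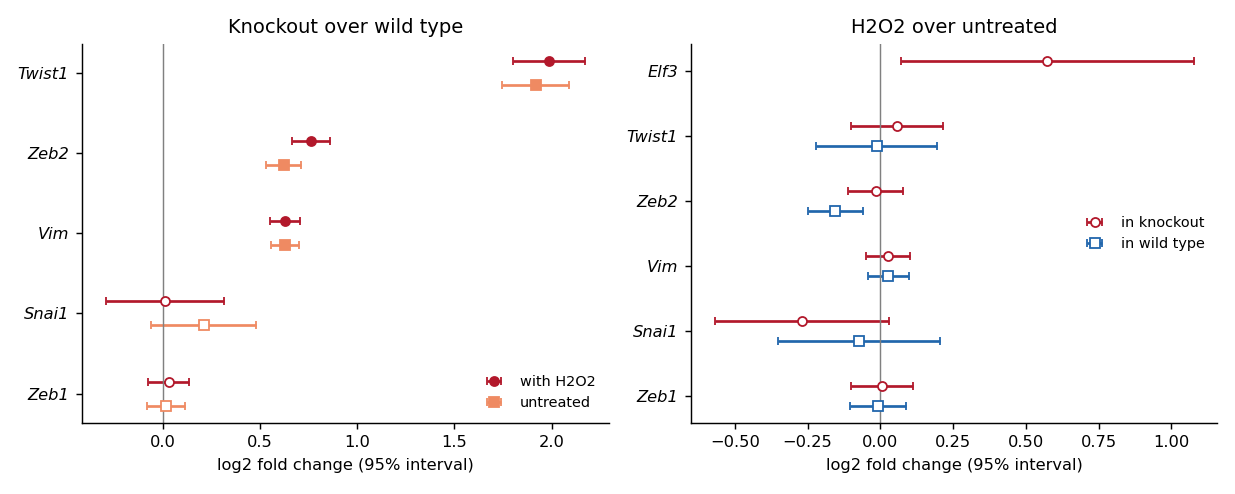
Log2 fold changes with 95% intervals, knockout over wild type on the left and peroxide over untreated on the right; filled symbols passed an adjusted p of 0.05. Elf3 is left out on the left because its wild-type libraries held 0 counts; Twist1, Zeb2 and Vim lie to the right of 0 in both conditions, and no symbol on the right is filled.

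Twist2, Grhl2, Prrx1 and Snai2 had too few counts for the test. Twist2, the close relative of Twist1 (mm10 chr1:91801461-91848028, plus strand), held 0, 0, 1 and 1 counts in untreated knockout libraries, against 6, 2, 7 and 8 in wild-type libraries. With peroxide it held 1, 1 and 0 counts in knockout cells, against 3, 2, 10 and 4 in wild-type cells. The ranges did not overlap in either condition, and the order was the opposite of that of Twist1. The ratio of knockout to wild type was 0.0878 untreated (95% interval 0.0100 to 0.355) and 0.152 with peroxide (0.0171 to 0.629), intervals that cover counting error only. Twist2 shares 1477 exon bases with the antisense gene Gm29100, which summed to 5 counts in untreated knockout cells and 14 in untreated wild-type cells, so reads of both genes cannot be told apart where strand was not used. With no count filter, Twist2 was called lower, with a fitted log2 fold change of -3.23 (adjusted p = 0.000872) untreated and -2.57 (adjusted p = 0.0212) with peroxide.

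Grhl2 (mm10 chr15:37233036-37363569, plus strand) summed to 3 counts in untreated knockout cells and 7 in untreated wild-type cells, a ratio of 0.433 (95% interval 0.0722 to 1.90). With peroxide it summed to 2 counts in knockout cells and 8 in wild-type cells, a ratio of 0.360 (0.0373 to 1.81). Both intervals include equality. Prrx1 (mm10 chr1:163245119-163313710, minus strand) had 1 count in untreated and 3 in treated knockout cells, against 0 in all 8 wild-type libraries. Both groups were at or under 3 counts, so no fold is given. Snai2 (mm10 chr16:14705852-14709385, plus strand) had 0 counts in all 15 libraries, which allows up to 0.0728 CPM in treated and 0.0513 CPM in untreated knockout cells, against 0.0506 CPM in treated and 0.0509 CPM in untreated wild-type cells. In both genotypes Twist1 was counted in every library and Twist2 stood at trace counts, and Snai1 was counted in every library and Snai2 in none.

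**Figure D3:**
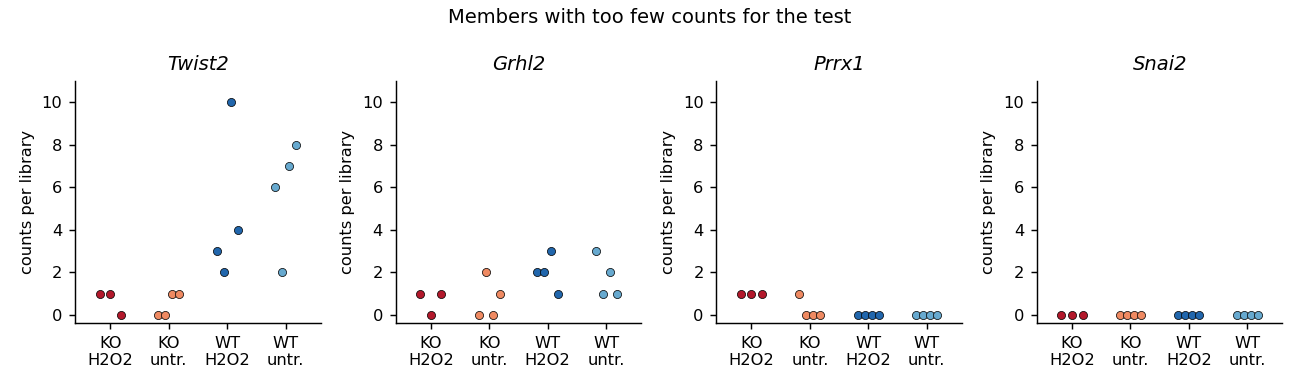
Counts per library of the 4 members too low for the test (KO, knockout; WT, wild type; untr., untreated). Twist2 has 0 or 1 count in each knockout library and 2 to 10 in the wild-type libraries, and Snai2 stands at 0 throughout.

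By the deposited RPKM, the order of the members was set by Vim, far above the rest, and by Zeb1. The gene lengths behind these values are not given, and the order between genes and shares of a sum depend on them. The annotated exons cover 1628 bases for Twist1, 10266 for Zeb1 and 19942 for Zeb2. With these exon lengths the order of these genes would differ from the RPKM order. In untreated wild-type cells Twist1 averaged 7.6 CPM and Zeb2 55.7 CPM, so per exon base Twist1 would stand above Zeb2. The same holds in untreated knockout cells, where Twist1 (28.8 CPM) would also stand above Zeb1 (56.3 CPM) per exon base. In untreated knockout cells mean RPKM was 1141 for Vim, 20.1 for Zeb1, 12.7 for Twist1, 6.64 for Zeb2, 2.37 for Snai1 and 1.47 for Elf3. In untreated wild-type cells it was 755.4 for Vim, 20.3 for Zeb1, 4.41 for Zeb2, 3.41 for Twist1 and 2.09 for Snai1, with Elf3 at 0. Only Snai1 and Elf3 overlapped among these neighbours in knockout cells, and none did in wild-type cells. Lower down, Twist2 (0.130 RPKM) and Grhl2 (0.0334 RPKM) overlapped in untreated wild-type cells, as did Grhl2 (0.0139 RPKM) and Twist2 (0.0107 RPKM) in untreated knockout cells. By these RPKM values Twist1 and Zeb2 stood in opposite order in the 2 genotypes, an order that rests on the lengths used. The ratio of Twist1 to Zeb2 RPKM was 1.90 ± 0.12 (SD, n = 4) in untreated knockout cells and 0.773 ± 0.0437 (n = 4) in untreated wild-type cells. The ratio of Zeb1 to Zeb2 was 3.03 ± 0.116 in untreated knockout cells and 4.61 ± 0.113 in untreated wild-type cells. Summed over the 7 mesenchymal factors, RPKM was 41.8 ± 2.86 in untreated knockout cells and 30.4 ± 0.286 in untreated wild-type cells. Twist1 made up 30.2% of that sum in untreated knockout cells and 11.2% in untreated wild-type cells.

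With peroxide the first 4 kept their order in knockout cells, with mean RPKM of 1170 for Vim, 20.3 for Zeb1, 13.2 for Twist1 and 6.61 for Zeb2, while Elf3 (2.20) and Snai1 (1.96) overlapped. Treated wild-type cells had 771 for Vim, 20.3 for Zeb1, 3.98 for Zeb2, 3.39 for Twist1 and 2.00 for Snai1. The ratio of Twist1 to Zeb2 was 2.00 ± 0.241 (n = 3) in treated knockout cells and 0.853 ± 0.0757 (n = 4) in treated wild-type cells. The summed RPKM of the 7 factors was 42.1 ± 1.29 in treated knockout cells and 29.7 ± 1.04 in treated wild-type cells.

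**Figure D4:**
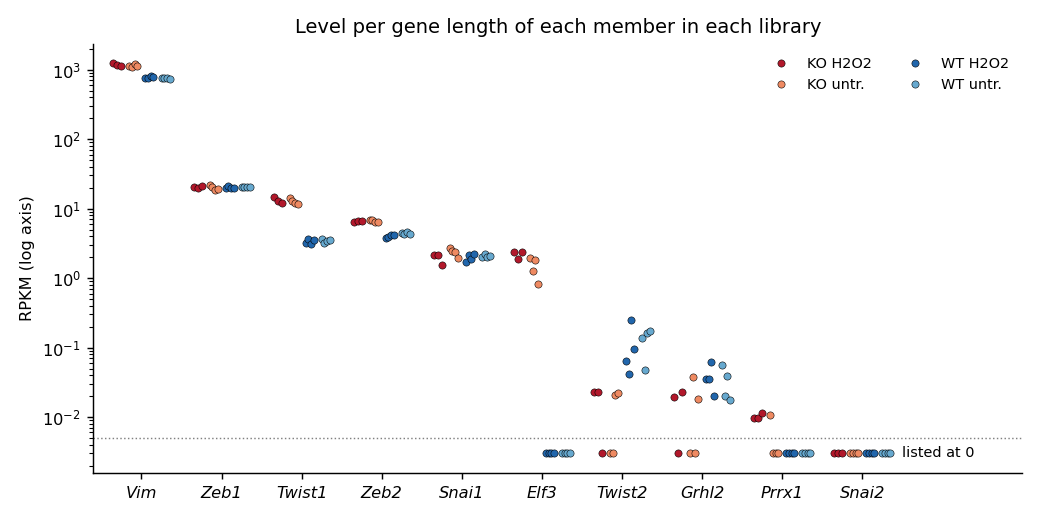
RPKM on a log axis of each member in each library, coloured by group (KO, knockout; WT, wild type; untr., untreated), with values of 0 drawn below the dotted line. Vim averages 755.4 to 1170 and Zeb1 20.1 to 20.3 over the groups. Twist1 is above Zeb2 in knockout cells and below it in wild-type cells, an order that rests on the gene lengths used.

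None of the 6 tested members was called for peroxide in either genotype. Over all genes, 0.0535% were called in knockout cells and 0.0153% in wild-type cells, and 0% for the difference between the genotypes' responses (the interaction). At an unadjusted p under 0.05 there were 1041, 847 and 808 such genes. The direction of the few genes called in knockout cells depended on the setting. All 7 were lower, while 12.5% of 8 were higher with DESeq2's size factors or library totals, 25.9% of 27 with no filter, 34.0% of 53 with DESeq2 and 57.1% of 7 with only the groups compared. The 95% interval of the log2 fold change over untreated cells was -0.10 to 0.22 for Twist1, -0.11 to 0.08 for Zeb2, -0.05 to 0.10 for Vim, -0.10 to 0.11 for Zeb1 and -0.57 to 0.03 for Snai1 in knockout cells. In wild-type cells it was -0.22 to 0.20 for Twist1, -0.25 to -0.06 for Zeb2, -0.04 to 0.10 for Vim, -0.11 to 0.09 for Zeb1 and -0.35 to 0.21 for Snai1.

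The 2 members nearest to a response were Zeb2 and Elf3. Zeb2 averaged 50.1 ± 2.57 CPM in treated and 55.7 ± 1.62 CPM in untreated wild-type cells (SD, n = 4 each), the libraries did not overlap, and the log2 fold change was -0.15 ± 0.05 with an unadjusted p of 0.00225 and an adjusted p of 0.5. In knockout cells Zeb2 averaged 84.7 ± 1.23 CPM treated (n = 3) and 85.6 ± 3.51 CPM untreated (n = 4). The interaction for Zeb2 was 0.14 (95% interval 0.01 to 0.27, unadjusted p = 0.0411, adjusted p = 0.806). Elf3 averaged 6.66 ± 0.77 CPM in treated knockout cells (n = 3) and 4.48 ± 1.56 CPM in untreated knockout cells (n = 4), with overlapping libraries. Its log2 fold change was 0.57 ± 0.23 (unadjusted p = 0.0280, adjusted p = 0.562). Neither passed the correction, and the share of all genes whose libraries do not overlap was not counted.

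The other genes of the programme were called in both directions, as were genes over the whole table. The counts of the lists below stand beside 66.8% of all tested genes called untreated (33.9% higher, 32.9% lower). With peroxide the share over all genes was 65.4% (33% higher, 32.4% lower). Whether any list departs from these shares was not tested. Of 20 other mesenchymal transcription factors, 12 were tested, and 4 rose, 6 fell and 2 did not pass in untreated knockout against wild-type cells (median log2 fold change -0.07). The E-protein gene Tcf12, a dimer partner of TWIST1, averaged 213.1 ± 8.68 CPM in knockout cells and 176.1 ± 4.55 in wild-type cells (log2 fold change 0.28, adjusted p = 3.165e-07). Its relative Tcf4 fell to 36.4 CPM in knockout cells, against 51.3 CPM in wild-type cells (log2 fold change -0.49, adjusted p = 1.561e-09). Runx2, an osteoblast factor, rose by 0.25 (adjusted p = 0.00137), and the ETS factor Etv5 fell by 0.43 (adjusted p = 1.531e-10), both on the log2 scale. With peroxide 3 rose and 6 fell, and Runx2 did not pass (adjusted p = 0.142).

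Of 20 other epithelial regulators 5 were tested, of which 3 rose and 2 fell. Klf4, a zinc-finger factor of differentiating epithelia, averaged 33.1 CPM in knockout and 22.6 CPM in wild-type cells (log2 fold change 0.56, adjusted p = 1.459e-06). Tfap2a (log2 fold change -0.53, adjusted p = 4.014e-11) and the luminal factor Gata3 (-0.19, adjusted p = 0.00291) fell. With peroxide 3 again rose and 2 fell. Among cofactors and turnover genes of the factors, 22 of 23 were tested and 9 rose, 9 fell and 4 did not pass; with peroxide 8 rose and 5 fell. Id1, which sequesters E-proteins, averaged 15.3 CPM in knockout and 10.6 CPM in wild-type cells (log2 fold change 0.53, adjusted p = 7.962e-06), and the histone methyltransferase gene Ezh2 rose by 0.45 (adjusted p = 1.001e-08). Ajuba, a LIM corepressor partner of SNAI1, fell to 14.0 CPM in knockout cells, against 25.6 CPM in wild-type cells (log2 fold change -0.87, adjusted p = 9.254e-11), and the kinase gene Lats2 fell by 0.53 (adjusted p = 7.242e-10).

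Among mesenchymal effector genes 11 of 20 were tested, and 7 rose, 2 fell and 2 did not pass, with a median log2 fold change of 0.46; with peroxide 6 rose and 2 fell. Fibronectin (Fn1) averaged 232.4 ± 46.1 CPM in untreated knockout cells and 34.7 ± 1.10 CPM in untreated wild-type cells (log2 fold change 2.74, adjusted p = 3.508e-09). The matrix gene Tgfbi had a log2 fold change of 0.97 (adjusted p = 3.678e-07). The fibronectin receptor subunit gene Itga5 fell by 0.18 (adjusted p = 0.000145). N-cadherin (Cdh2) summed to 5 counts in untreated knockout cells and 12 in untreated wild-type cells, too few for the test.

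Epithelial effector genes were split, with 11 of 22 tested, 5 higher, 5 lower and 1 not called (median log2 fold change 0.01), and the same split with peroxide. The simple keratin Krt19 averaged 156 ± 6.23 CPM in untreated knockout and 54.3 ± 4.09 CPM in untreated wild-type cells (log2 fold change 1.52, adjusted p = 1.011e-18). The tight junction gene Ocln (0.65, adjusted p = 8.487e-06) and the desmosomal gene Pkp3 (0.40, adjusted p = 8.882e-06) also rose. Desmoplakin (Dsp) fell to 75.8 ± 4.56 CPM in untreated knockout cells, against 498.5 ± 6.49 CPM in untreated wild-type cells (log2 fold change -2.72, adjusted p = 2.753e-28). Krt18 fell to 153.5 CPM in knockout cells, against 333.8 CPM in wild-type cells (adjusted p = 6.926e-21), and the tight junction scaffold gene Patj had 4 counts in knockout and 456 in wild-type cells (adjusted p = 5.791e-18).

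Among intermediate filament genes and vimentin's partners, Vim included, 12 of 21 were tested; 7 rose, 3 fell and 2 did not pass, with the same counts under peroxide. Krt8, the usual partner of KRT18, averaged 649.5 ± 19.4 CPM in untreated knockout and 646.1 ± 25.6 CPM in untreated wild-type cells (log2 fold change 0.01, adjusted p = 0.868). Lamin B1 (Lmnb1) averaged 77.5 CPM in knockout and 38.1 CPM in wild-type cells (log2 fold change 1.02, adjusted p = 2.025e-15), and the actin cross-linker gene Flna fell by 0.25 (adjusted p = 7.541e-07). Of 24 inducers of the factors, 21 were tested, and 9 rose and 10 fell untreated, while 9 rose and 8 fell with peroxide. Notch1 averaged 41.6 CPM in untreated knockout and 19.1 CPM in untreated wild-type cells (log2 fold change 1.12, adjusted p = 1.462e-13), and its ligand gene Jag1 rose by 0.47 (adjusted p = 3.843e-05). Hif1a fell to 138.9 CPM in knockout cells, against 237.5 CPM in wild-type cells (log2 fold change -0.77, adjusted p = 2.369e-12), and the ligand gene Tgfb3 fell by 0.64 (adjusted p = 6.778e-11). No listed gene was called for peroxide or the interaction, where at most 0.0535% of all genes were called. Without untreated wild-type replicate 9, the untreated counts were 4 higher and 5 lower for the other mesenchymal factors, 9 and 8 for cofactors and turnover and 9 and 9 for the inducers, and the other 4 lists had the counts given above.

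**Figure D5:**
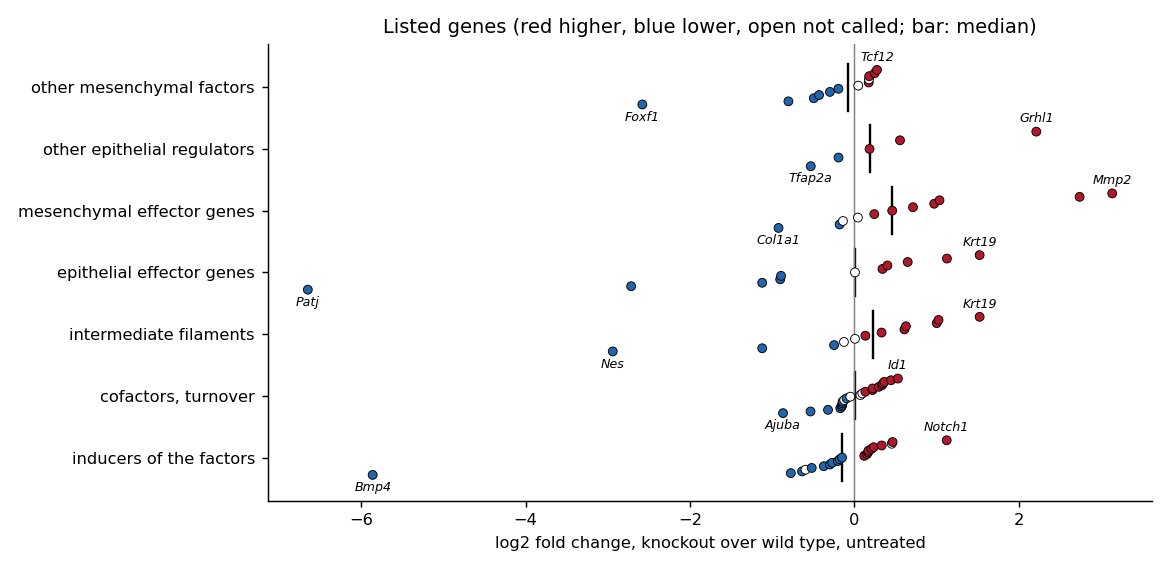
Log2 fold change, knockout over wild type in untreated cells, of the tested genes in 7 lists around the members; the farthest gene in each direction is labelled and the bar is the list's median. Higher and lower genes stand in every list, with Fn1 and Krt19 to the right and Dsp and Patj to the left.

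Summed markers of several cell types differed with genotype in untreated cells. The luminal list, nearly all keratins, summed to 922.1 to 980.6 CPM in untreated knockout and 996.9 to 1062 CPM in untreated wild-type cells. With peroxide the luminal sums overlapped, at 968.4 to 1032 CPM in knockout and 1015 to 1060 CPM in wild-type cells. The fibroblast, immune and endothelial sums stayed lower in knockout cells with peroxide. The fibroblast list summed to 11.27 to 13.95 CPM in untreated knockout and 19.83 to 23.15 CPM in untreated wild-type cells, with 1 of 10 genes at 1 CPM or more. The immune list summed to 272.5 to 308.9 CPM in untreated knockout and 407.4 to 451.8 CPM in untreated wild-type cells, most of it Cd68 (288.7 and 400.8 CPM). Lcp1, a leukocyte actin-bundling gene, had 1 count in untreated knockout and 1321 counts in untreated wild-type cells. Without Cd68 and Lcp1 the immune list summed to 3.48 to 4.31 CPM in untreated knockout cells, against 33.4 CPM in untreated wild-type replicate 9 and 0.779 to 1.95 CPM in the other 3, so the order turned without that library. The integrin gene Itgam averaged 3.52 CPM in treated knockout and 0.856 CPM in treated wild-type cells (log2 fold change 2.03, adjusted p = 0.0165). The endothelial list summed to 3.37 to 4.11 CPM in untreated knockout and 23.1 to 25 CPM in untreated wild-type cells, where Vwf made up 22.2 CPM, against 1.83 CPM of Vwf in untreated knockout cells. Its member Cdh5 rose, at 1.66 CPM in untreated knockout and 0.7103 CPM in untreated wild-type cells (log2 fold change 1.21, adjusted p = 0.000179). The basal list stayed at or under 0.618 CPM in every library. The sums of the luminal, fibroblast, immune and endothelial lists were lower in every untreated knockout library than in any untreated wild-type library, though single members went the other way, and their part in the differences of Vim, Twist1 and Zeb2 was not tested. Leaving out replicate 9 does not test that part. Cd68 and Vwf were also higher in each of the other untreated wild-type libraries than in any untreated knockout library.

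The genes whose profile over the 15 libraries was most like Twist1 were Ptges, Fkbp5, Eif3b, Rpl22 and Eif4e3 (Pearson's r 0.995 to 0.996 over log2 CPM). Those most like Vim were Gdf15, Igfbp6, Actb, Lgals7 and Eif3b (r 0.994 to 0.995). The 15 libraries form 2 genotypes, so r is carried by the genotype step: r of Ptges with Twist1 was 0.656 within the 7 knockout libraries and 0.165 within the 8 wild-type libraries. These values are a description, with no test.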

How the data were processed

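Polyadenylated RNA of 15 libraries was read from 2 deposited tables. The expected counts per gene were made by the authors on build mm10 (cutadapt, STAR and RSEM are the tools in the submitters' processing notes) and deposited as whole numbers. The deposited RPKM values are scaled by gene length and library size, and were used for levels between genes. Strand setting, annotation, the gene lengths behind the RPKM and versions are not given in the sources used here. Groups follow the labels' titles.

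Differences were tested with edgeR 4.0.16 in R 4.3.3 (quasi-likelihood, TMM scaling, filterByExpr) on all 4 group means. This left 13085 of 55341 genes, holding 99.917% of counts. Benjamini-Hochberg adjustment ran over the whole table, and an adjusted p under 0.05 was a call. CPM are TMM-normalised. The method was run on simulated data in which few genes changed. In the untreated genotype comparison 66.8% of genes were called, a setting that this simulation does not cover. Alternatives were DESeq2 1.42.0, limma 3.58.1 on log2(RPKM + 0.1), other scalings and filters, only the groups compared, and each library left out. Replicates were compared first, and no pair agreed within sampling noise. Intervals on count ratios cover counting error only. Positions come from GENCODE M21 (mm10) and promoters from RefSeq (GRCm38.p6).

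Members and gene lists were chosen with earlier results of these data known. From each list, the called genes farthest up and down in the untreated comparison were named, if replicates did not overlap and the higher group averaged 5 CPM or more, 2 each way (3 for effector lists). One gene that this rule names is not reported here.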

Additional observations from a re-analysis of the deposited data

Results flagged for a closer look

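Of 149 groups of 4 libraries, 17 held 1 library apart from the rest. The rule's nominal rate of 1 in 20 does not hold near 0, where 1 count against 0 is always flagged. No excess over chance can be read from this number. Immune genes and a few others were added to the genes looked at after their values were seen. Pdgfrb, Fap and Pecam1 were not among the genes looked at. Untreated wild-type replicate 9 stood apart in 6 genes at 4 or more counts. It held 4.52 CPM of Ptprc and 0.878 CPM of Cd3e, against 0 in the others, 19.4 CPM of Lyz2, against 0 to 0.142, 6.48 CPM of Itgam, against 0.638 to 1.60, 31.1 CPM of Lcp1, against 18.4 to 20.4, and 0.27 CPM of Adgre1, against 0. It also held 1 count of Epcam (0.0675 CPM), against 0.

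Tgfbi stood at 8.41 CPM in untreated knockout replicate 4, against 6.14 to 6.51 in the others. Vwf stood at 21.8 CPM in treated wild-type replicate 15, against 24.2 to 24.4 in the others. The remaining values rest on at most 2 counts. Prrx1 and Lcp1 each stood at 0.0766 CPM in untreated knockout replicate 1, Cd79a at 0.0685 CPM in untreated knockout replicate 2 and Cdh1 at 0.0668 CPM in untreated knockout replicate 4, against 0 in the others. In treated wild-type cells Ptprc stood at 0.0742 CPM in replicate 15, Lyz2 at 0.126 CPM in replicate 13 and Cdh1 at 0.144 CPM in replicate 16, against 0 in the others. Adgre1 stood at 0 in untreated knockout replicate 1, against 0.0633 to 0.0685 CPM in the others.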

How the results depend on the processing

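No paired analysis was possible because the groups share no replicate number. The calls of Twist1, Zeb2, Elf3 and Vim held under every alternative that was run and without any 1 library. Members called untreated numbered 4 to 5 as single libraries were left out. With no count filter 1 member was too low, against 4, and Twist2 was then called lower. Values near 0 changed sign. Zeb1 untreated was -0.0175 by library totals, -0.0171 by limma on RPKM and -0.0229 to 0.0429 with 1 library left out. Snai1 with peroxide was -0.0162, -0.0341 and -0.0713 to 0.143 under these. The Vim interaction was 9e-04 with DESeq2's size factors, 0.0064 by library totals, 0.004 with no filter, 0.0022 with a stricter filter, 0.001 with DESeq2, 0.0066 with limma and -0.036 to 0.0275 with 1 library left out. Also with 1 library left out, peroxide in knockout cells gave -0.0282 to 0.118 for Twist1, -0.0271 to 0.0429 for Zeb1, -0.0318 to 0.0057 for Zeb2 and -0.0059 to 0.0517 for Vim. In wild-type cells it gave -0.056 to 0.0196 for Twist1 and -0.0286 to 0.0027 for Zeb1, and the interaction gave -0.0186 to 0.131 for Twist1 and -0.0165 to 0.0505 for Zeb1.

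Genes called for peroxide in knockout cells numbered 7, but 27 with no filter, 53 with DESeq2 and 3 with limma. They numbered 0 to 21 with 1 library left out: 18, 1, 4, 0 and 21 without untreated knockout replicates 3 and 4, treated knockout replicates 5 and 8 and treated wild-type replicate 15. In wild-type cells they numbered 2, but 12 with no filter, 9 with DESeq2, 0 with limma and 0 with only the groups compared. They numbered 0 to 13 with 1 library left out: 0 without treated knockout replicate 5, untreated wild-type replicate 9, 10 or 11 or treated wild-type replicate 14, 15 or 16, 6 without untreated knockout replicate 4, 7 without treated wild-type replicate 13 and 13 without untreated wild-type replicate 12. The interaction gave 0, but 5 with no filter, 15 with DESeq2 and 0 to 3 with 1 library left out (1 without treated knockout replicate 8, 3 without treated wild-type replicate 15). The cause was not tested. Depth limits Twist2, Grhl2, Prrx1 and Snai2.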
